A study of Mus musculus with 9 samples.

Results

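RNA from macrophages labelled Tet2 knockout was compared with RNA from macrophages labelled wild type, after the genes that were abundant in a single wild-type library had been set aside. The knockout group holds 2 RNA libraries (knockout 1 and 2) and the wild-type group 3 (wild type 1, 2 and 3), which are 5 of the 9 libraries of the series. All groups are mouse macrophages at passage 0 kept in M-CSF. Strain, age, tissue of origin and the construct of the Tet2 allele are not given in the labels. Nor is it stated that each library is its own animal or culture, and a p-value here therefore reflects the spread among these libraries alone, which may be technical. Of 47731 genes in the table, 47054 were kept: 675 genes were dropped because their level in wild type 3 was at least 10 times the highest level in the other 4 libraries, and 2 features of a knock-in sequence were dropped as well. Levels for this rule were counts per 1000000 gene counts (CPM) plus 0.1.

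TET2 is a dioxygenase that acts on methylated cytosine in DNA and turns it into 5-hydroxymethylcytosine (5hmC), a step on the way to removing the methyl mark. In blood cells its loss is known for favouring expansion of progenitors and for raising the output of inflammatory cytokines by macrophages. M-CSF binds the receptor encoded by Csf1r and keeps macrophages alive and differentiating. Macrophages recognise microbes and dead cells through surface lectins, Fc receptors and integrins, and they change their surface repertoire with their state of activation.

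Extracellular matrix genes led the dropped genes by abundance. The highest were Col1a2, a chain of type I collagen, at 2373 CPM in wild type 3 and at most 0.565 CPM elsewhere, and Thbs1, an adhesive matrix glycoprotein, at 1743 CPM and at most 35.1 CPM. Csf1, which encodes M-CSF itself, was also dropped, at 344 CPM in wild type 3 and 2.01 to 6.37 CPM in the other libraries. Genes dropped by the rule held 3.11% of the counts of wild type 3 and 0.0200% to 0.0267% of those of the others, and 307 of them reached 10 CPM there. Applied to any other library in place of wild type 3, the same criterion found 1 to 8 genes. At the edge of the rule, Bcat1 was kept with a ratio of 9.87 (63.3 CPM in wild type 3), and so was the cyclin gene Ccnd2 with 9.73 (151.7 CPM). Just outside it, Ajuba was dropped with a ratio of 10.07 (17.8 CPM) and Neo1 with 10.4 (39.5 CPM). Since the rule reads a wild-type library, it can only remove genes that are high in wild type, and 812 kept genes still had a ratio between 3 and 10.

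**Figure D1:**
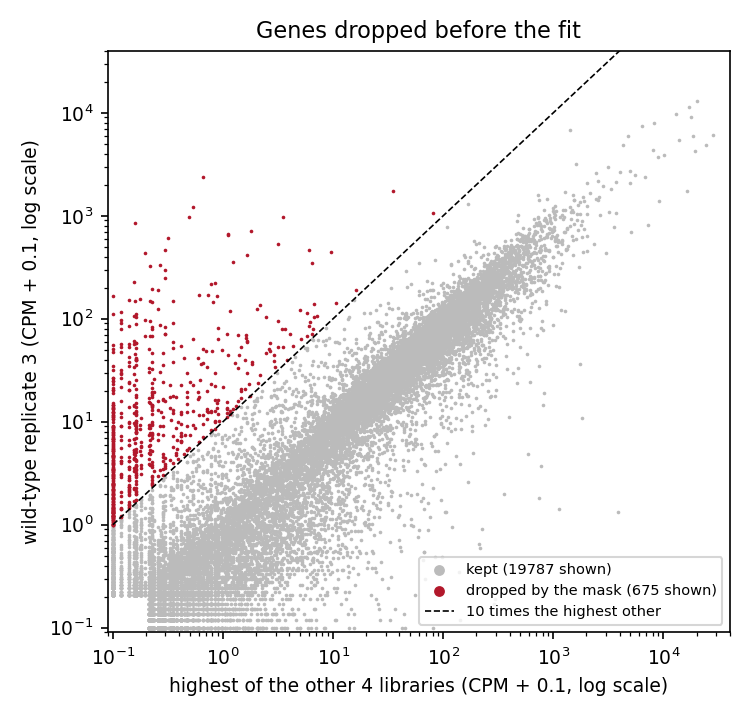
Each point is a gene, with its highest level among the other 4 libraries on the horizontal axis and its level in wild type 3 on the vertical axis, both as CPM plus 0.1 on log scales. The 675 dropped genes (red) lie on or above the dashed line that marks 10 times the highest other library. Kept genes are grey, and those near 0 in every library are not drawn.

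The libraries held 16053426 and 25479447 gene counts in knockout and 17569441, 51355576 and 56394358 in wild type. All 14 macrophage markers were detected in every library, with a summed level of 19611 and 22534 CPM in knockout and 16334 to 24075 CPM in wild type. Of 20 fibroblast and osteoblast markers 16 were dropped, and the list summed to 8143 CPM in wild type 3 against 10.9 to 28.2 CPM in the other 4 libraries. Tet2 was at 232 and 126 CPM in the libraries labelled knockout, against 86.2, 144 and 41.6 CPM where the label was wild type (log2 0.91 ± 0.55, SE; edgeR quasi-likelihood adjusted p = 0.510). Counts over the whole Tet2 gene were therefore not lower in the libraries labelled knockout, and every direction below rests on the labels. The first knock-in feature followed the labels, with 1452 and 2245 counts in knockout and 0 in all 3 wild-type libraries, and the listed 5hmC peak in Tet2 had 0 and 0 counts in knockout and 3 and 18 in wild type. In a principal component analysis of the tested genes, the first component (52.9% of the variance) put knockout 1 and 2 at -66.7 and -44.2 and wild type 1, 2 and 3 at 73.5, 5.71 and 31.7. The second (29.7%) mostly set wild type 1 (46.0) apart from wild type 3 (-68.0).

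**Figure D2:**
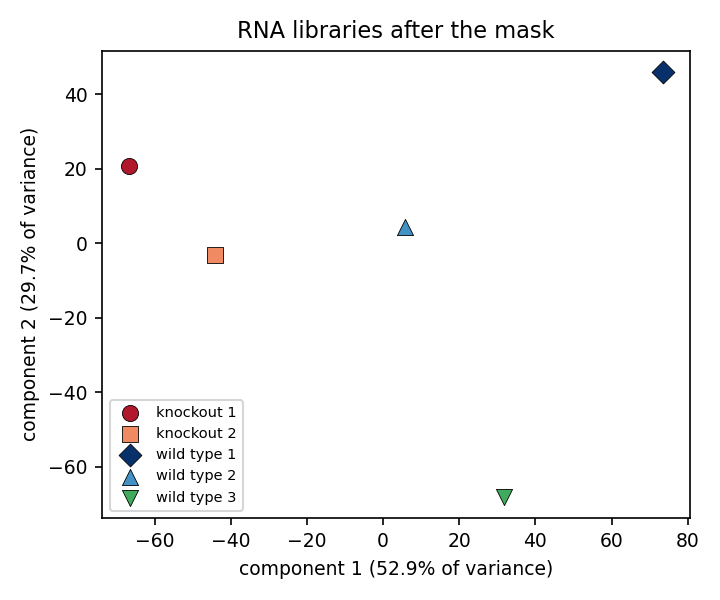
Position of the 5 RNA libraries on the first 2 principal components of log2 normalised CPM over the tested genes, after the rule was applied. The knockout libraries lie to the left of all wild-type libraries, wild type 2 is the nearest to them, and the 3 wild-type libraries are spread more widely than the 2 knockout libraries.

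The comparison asks which macrophage genes keep the genotypes apart. edgeR's quasi-likelihood test called 2 of 14734 tested genes at an adjusted p of 0.05 (0.0136%), both higher in knockout (0.0136%) and 0 lower (0%). An unadjusted p under 0.05 was reached by 905 genes that were higher (6.14%) and 1199 that were lower (8.14%). DESeq2 called 468 of 14693 genes higher (3.19%) and 677 lower (4.61%), while limma-voom called 0, and there 982 higher and 930 lower genes had an unadjusted p under 0.05. The filter on low counts can pass a gene through 1 genotype alone, and such a gene had to differ. In bulk RNA, fewer cells of a type and less RNA per cell cannot be told apart.

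A plain description of separation was used beside the test. Normalised CPM, in which each library total was first scaled by the TMM factor, did not overlap between genotypes for 2545 genes higher in knockout (17.3%) and 2840 lower (19.3%), or 36.5% in all. A gene was called separated where the lowest library of the higher genotype was at least 2 times the highest library of the other, after 0.5 normalised CPM was added to each. That held for 558 genes (3.79%), of which 264 were higher in knockout (1.79%) and 294 lower (2%). Among those higher, the median fitted log2 difference was 3.15, 74 were separated at least 4-fold, 24 at least 8-fold and 5 at least 16-fold. Among those lower, the median was -2.76, with 53, 11 and 4 genes at these folds. Of the separated genes with a RefSeq position, 216 of 251 higher and 267 of 285 lower ones were protein-coding. Wild type 2 was the wild-type library nearest to knockout for 61.4% of the genes separated higher and 59.9% of those separated lower, against 48.6% of all tested genes, and wild type 1 was the farthest for 63.6% and 70.1%, against 47.8%.

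The called genes were both predicted genes. Gm10260 was at 66.6 and 94.5 normalised CPM in the knockout libraries, against 0.137, 0.258 and 0.371 in wild type. Gm10036, a pseudogene, was at 31.9 and 49.1 against 0.959, 0.866 and 0.996. Within each genotype the libraries lay close together and the genotypes were far apart (log2 8.16 ± 0.44 and 5.43 ± 0.32, SE; edgeR quasi-likelihood adjusted p = 0.0297 for each). Such genes can share reads with close copies, which makes their counts uncertain. With any 1 library left out, edgeR called neither.

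By the naming rule, 20 protein-coding genes higher in knockout and 16 lower were taken, all chosen because their libraries do not overlap. In edgeR none of the 36 passed, with adjusted p from 0.122 to 0.242. DESeq2 called all 36, against 3.19% of all its genes higher and 4.61% lower. The 36 were picked from these same libraries by p or gap, so the DESeq2 calls are no separate support. With wild type 1, wild type 2 or wild type 3 left out, edgeR called 0 of them, while their direction is fixed by how they were chosen. The nearest wild-type library was wild type 2 for 26 of the 36.

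Among the named protein-coding genes higher in knockout, the widest gaps belonged to 2 neighbouring C-type lectin genes of the DC-SIGN family, receptors that bind sugars on microbes. Cd209f (GRCm38 chromosome 8, 4102784 to 4105838) was at 283 and 167 normalised CPM in the knockout libraries, against 0, 2.76 and 0.0675 in wild type. Cd209g (chromosome 8, 4134246 to 4137707) was at 140 and 74.3 against 0, 1.22 and 0.0169. Both were high in each knockout library and near the detection limit in wild type 1 and 3, with 0 counts in wild type 1, which allows up to 3 counts there. Wild type 2 held 150 counts of Cd209f and 66 of Cd209g, so the wild-type libraries differed among themselves by far more than the knockout libraries did. The fitted log2 differences were 7.77 ± 1.67 and 7.83 ± 1.55 (SE; edgeR quasi-likelihood adjusted p = 0.181 and 0.169). The genes are close copies, so reads may have been divided between them.

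Promoters are shown for the first 2 named genes in each direction, by width of the gap, whose promoter held a searched motif. All 4 hold a match to the AP-1 motif TGANTCA. They are the 250 bases before the transcript start in RefSeq (GRCm38.p6), read 5′ to 3′ on the strand of the gene, with the matched bases in capitals. In Tmem154 the capitals also mark TGTGGT, the motif of RUNX factors. Their positions are chr8:4105765-4106014 on the minus strand for Cd209f, and chr8:4134486-4134735, chr3:84665942-84666191 and chr7:128129300-128129549 on the plus strand for Cd209g, Tmem154 and Itgax.
Cd209f: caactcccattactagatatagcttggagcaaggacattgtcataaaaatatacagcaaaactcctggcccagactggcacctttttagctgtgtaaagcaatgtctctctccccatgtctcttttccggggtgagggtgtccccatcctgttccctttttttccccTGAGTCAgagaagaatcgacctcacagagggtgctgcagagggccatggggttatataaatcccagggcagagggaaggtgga
Cd209g: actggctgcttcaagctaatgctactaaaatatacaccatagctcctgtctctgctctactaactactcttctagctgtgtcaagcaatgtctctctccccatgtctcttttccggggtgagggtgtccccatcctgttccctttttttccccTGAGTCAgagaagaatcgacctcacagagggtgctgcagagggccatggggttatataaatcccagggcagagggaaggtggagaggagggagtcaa
Tmem154: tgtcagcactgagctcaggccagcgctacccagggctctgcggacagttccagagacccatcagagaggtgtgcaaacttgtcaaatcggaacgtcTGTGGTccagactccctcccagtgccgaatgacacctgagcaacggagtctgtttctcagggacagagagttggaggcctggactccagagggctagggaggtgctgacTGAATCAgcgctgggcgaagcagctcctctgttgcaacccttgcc
Itgax: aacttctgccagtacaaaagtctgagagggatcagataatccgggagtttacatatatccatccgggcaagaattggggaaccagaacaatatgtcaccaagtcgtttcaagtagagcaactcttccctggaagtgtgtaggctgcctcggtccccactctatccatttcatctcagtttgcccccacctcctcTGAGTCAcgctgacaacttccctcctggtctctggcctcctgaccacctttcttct
The match begins at -83 in Cd209f, -97 in Cd209g, -45 in Tmem154 and -56 in Itgax, counted from the transcript start, which for all but Tmem154 lies inside the annotated gene body. The lectin promoters share an identical run of 154 bases, from -154 to -1 in Cd209f and from -168 to -15 in Cd209g, and the match lies in it. The motif thus appears in genes of both directions, but these promoters were shown because they held a searched motif. Among the other genes of the gap ranking with a promoter, only Bcl2a1a and Fblim1 hold TGANTCA, and Lancl3, Cd55, Clec7a and Sulf2 are among those without it. A match describes letters only and says nothing of a bound factor.

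Over all promoters of this length, 4.37% of 9849 tested genes held TGANTCA on either strand, compared with 7.87% of 178 genes separated higher and 6.67% of 210 separated lower. The interferon-stimulated response element (GAAA, any 2 bases, GAAA) was found in 7.30%, 4.76% and 2.83% of the genes separated higher, separated lower and tested. The kappaB motif (GGGA, any base, TTTCC) was found in 3 promoters of genes separated higher (1.69%) and in 0 of those separated lower, against 0.335% of all. The PU.1 motif GAGGAAGT was found in 6.18%, 4.29% and 2.89%, and TGTGGT in 9.55%, 14.3% and 10.6%. The cyclic AMP response element TGACGTCA was rarer in both separated sets (0.562% and 0.476%) than in all (2.76%). Motifs were searched on both strands, each alone, and may overlap one another.

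Cd55 encodes decay-accelerating factor, a surface protein that limits complement activation. It was at 729 and 344 normalised CPM in the knockout libraries, against 0.480, 28.8 and 1.65 in wild type. Again every knockout library exceeded every wild-type library, and wild type 2 was far above the other wild-type libraries (log2 5.68 ± 1.67, SE; edgeR quasi-likelihood adjusted p = 0.242). Flvcr2, a transporter of the heme and choline transporter family, was at 38.6 and 13.5 against 0.0685, 0.295 and 0.574. Bcl2a1a, a relative of BCL2 that protects cells from death, was at 49.8 and 25.9 against 0.274, 0.921 and 1.76. Its copy Bcl2a1d was also separated, at 48.5 and 18.01 against 5.82, 3.46 and 8.002, whereas Bcl2a1b overlapped (12.7 and 10.2 against 18.6, 4.42 and 26.03). These copies are nearly identical, so the split of reads among them is uncertain.

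Several genes at the top of the gap ranking are better known outside macrophages. Lancl3, of the lanthionine synthetase C-like family, was at 117 and 61.4 against 0.0685, 2.69 and 0.810, and Morc4, a chromatin-associated ATPase, at 138 and 82.1 against 0.754, 4.94 and 3.60. Raver2, an RNA-binding protein, was at 210 and 58.6 against 0, 3.74 and 0.473, and Urah, a hydrolase of the uric acid degradation pathway, at 12.1 and 13.4 against 0, 0.387 and 0.118. For each of these the knockout libraries lay well above all wild-type libraries, and within wild type the order was wild type 2, then 3, then 1. Shisa3, which encodes an endoplasmic reticulum protein that restrains Wnt and FGF receptors, had 524 and 205 counts against 0, 7 and 1. Tmem63c, of a family of mechanically gated channels, had 430 and 96 counts against 0, 1 and 1. Both had few counts in wild type, and knockout 1 was higher than knockout 2.

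A second set of genes was named for a small edgeR p and was higher in knockout by smaller factors. Their wild-type libraries lay close together, which a ranking by p favours. Tnf, the inflammatory cytokine, was at 221 and 208 normalised CPM against 27.9, 38.9 and 21.8 (log2 2.86 ± 0.29, SE; edgeR quasi-likelihood adjusted p = 0.122). Traf1, an adaptor of TNF receptors that is itself induced by NF-kappaB, was at 44.9 and 41.5 against 11.2, 13.8 and 13.2. Batf, an AP-1 family partner of IRF factors in lymphoid and dendritic cells, was at 55.2 and 33.1 against 7.26, 6.70 and 9.30. The wild-type libraries of these genes were less spread than those of the lectins, which were named by gap, so the contrast follows in part from the rankings. The knockout libraries of Batf differed about as much as those of Cd209f. Sla, an adaptor that dampens antigen receptor signalling, was at 279 and 193 against 54.4, 63.7 and 47.2.

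Nuclear and housekeeping functions were also among them. Ell2, a subunit of the super elongation complex of RNA polymerase II, was at 306 and 279 against 72.3, 87.1 and 63.8 (log2 1.97 ± 0.22). It was the only separated gene among 27 tested members of the list RNA polymerase II elongation, whose median log2 was 0.08. Ppp2r1b, which encodes a scaffold of the phosphatase PP2A, was at 212 and 232 against 63.7, 45.0 and 49.5 and likewise stood alone among 18 protein phosphatase 2A subunits (median log2 -0.11). Suco, a membrane protein of the endoplasmic reticulum, was at 421 and 224 against 55.3, 63.4 and 58.4. Hmga1b, a copy of the architectural chromatin gene Hmga1, was at 46.7 and 61.9 against 11.3, 8.66 and 8.69, while Hmga1 was at 31.6 and 48.3 against 86.5, 76.1 and 72.5. The copies thus lay in opposite directions, and how the authors' counting divided their shared reads was not tested.

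The named genes lower in knockout included 3 surface receptors of phagocytes. Itgax (chromosome 7, 128129526 to 128150657), the CD11c integrin chain that pairs with CD18, was at 2.82 and 3.70 normalised CPM in the knockout libraries, against 272, 163 and 67.2 in wild type. All wild-type libraries were far above both knockout libraries, with a separation of 16.1-fold after the offset. Clec7a (chromosome 6, 129461591 to 129472785), which encodes the fungal beta-glucan receptor dectin-1, was at 2.88 and 9.65 against 676, 124 and 187. Fcgr3 (chromosome 1, 171051169 to 171065915), a low-affinity activating Fc receptor for IgG, was at 34.5 and 41.8 against 688, 303 and 422. For these 3 genes wild type 1 was the highest library, and the fitted log2 differences were -5.67 ± 0.75, -5.70 ± 1.13 and -3.63 ± 0.46 (SE; edgeR quasi-likelihood adjusted p = 0.124, 0.169 and 0.124). Itgax is also a dendritic cell marker. Of the 11 tested dendritic cell markers 7 were fitted higher and 4 lower (median log2 0.80), Itgax being the 1 separated member, and the list summed to 425 and 480 CPM in knockout and 446 to 677 CPM in wild type. Flt3 and Zbtb46, defining genes of that list, were at no more than 0.685 and 0.979 normalised CPM in any library. The part of dendritic cells in the level of Itgax was not tested.

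Tmem154 (chromosome 3, 84666192 to 84704575), a transmembrane protein whose function is little known, was at 1.72 and 1.72 normalised CPM against 67.2, 37.4 and 96.7. It had the smallest edgeR p of the named genes lower in knockout (log2 -5.29 ± 0.54, SE; quasi-likelihood adjusted p = 0.122), and 28 and 45 counts lay behind the knockout values. Mamdc2, an extracellular protein with MAM domains, had 2 and 4 counts in knockout and 733, 1153 and 947 in wild type. Mfsd6, a transporter-family membrane protein, was at 19.6 and 20.6 against 89.1, 80.7 and 104. All 3 were low in both knockout libraries with little spread.

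Enzymes that act outside the cell formed another set. Entpd1, the CD39 ectonucleotidase that degrades extracellular ATP, was at 2.39 and 3.55 against 192, 49.8 and 30.2. Enpp1, a pyrophosphatase that also cleaves extracellular nucleotides, was at 2.15 and 1.79 against 72.8, 21.9 and 67.7. Sulf2, which removes sulfate groups from heparan sulfate, was at 6.44 and 6.22 against 100, 52.0 and 73.6. In each case no library crossed over, and the wild-type libraries spread more than those of knockout.

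Of the transcription and signalling genes, Egr2, a zinc finger factor induced by growth factors, was at 2.15 and 2.18 against 89.9, 25.6 and 33.2 (log2 -4.52 ± 0.71). Dusp7, a phosphatase that inactivates ERK, was at 15.6 and 15.4 against 68.7, 52.97 and 65.4. Arhgap6, a GTPase-activating protein, was at 5.88 and 8.32 against 44.1, 36.4 and 30.5. The remaining named genes encode proteins of cell junctions and the actin skeleton. Cgnl1, the tight junction protein paracingulin, was at 5.21 and 5.15 against 82.4, 41.8 and 53.1, and Jup, which encodes plakoglobin, at 1.53 and 1.76 against 16.1, 9.87 and 16.1. Fblim1, which links filamin to adhesions, was at 4.66 and 0.725 against 145, 46.2 and 45.1. Tmod1, which caps actin filaments, was at 0.184 and 0.611 against 18.3, 8.56 and 8.78. All 4 were lower in each knockout library than in any wild-type library.

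**Figure D3:**
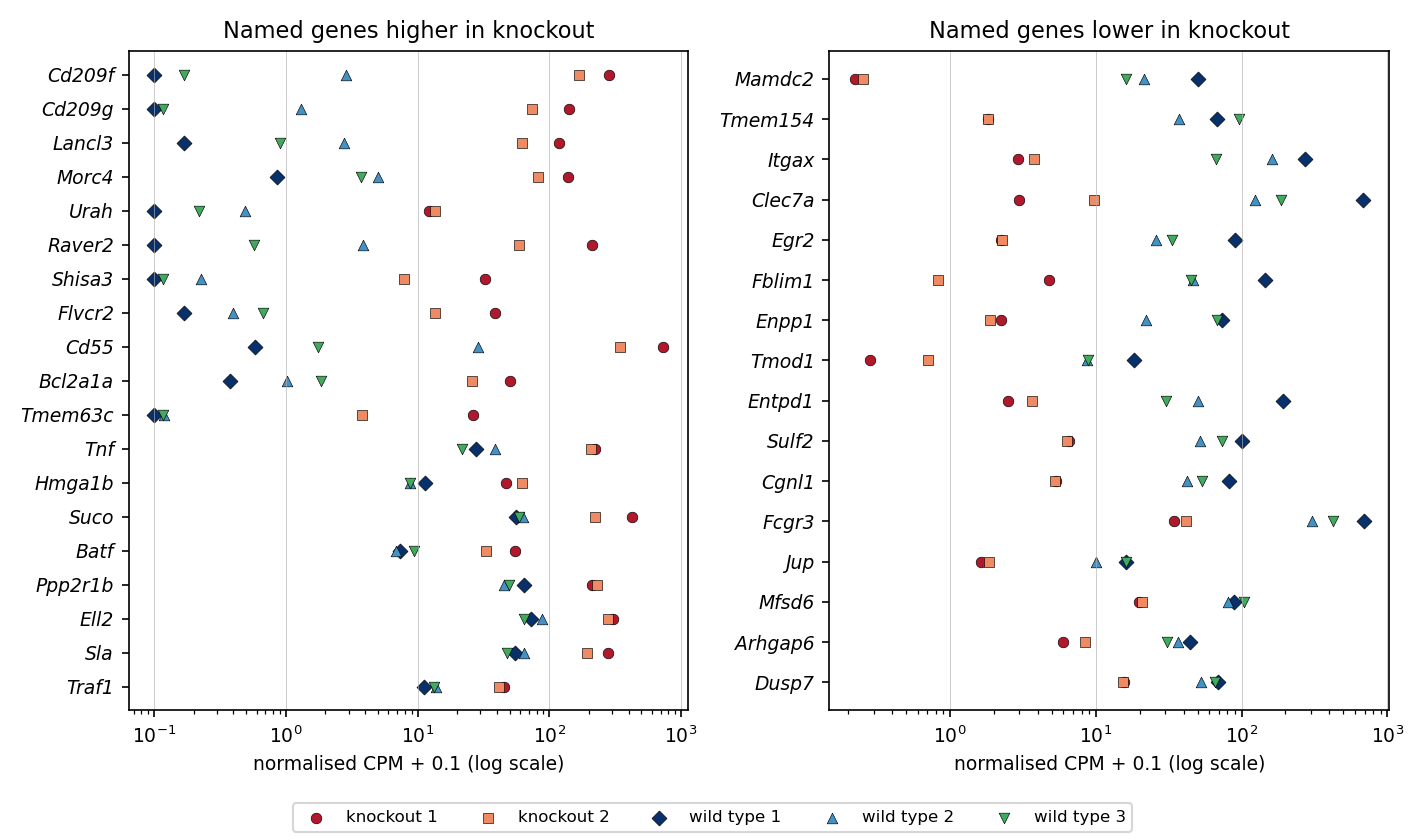
Normalised CPM plus 0.1 in every library on a log scale for the named genes higher in knockout (left) and lower (right) that are reported here, with 1 symbol per library. Knockout and wild-type symbols do not cross for any of these genes, which the naming rule required. In the left panel the wild-type symbols of Cd209f and Cd55, named by gap, are widely spread. Those of Tnf and Traf1, named by p, lie close together, which a ranking by p favours.

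Gene lists by function were then described by their counts and medians. The 40 lists held 1004 distinct tested genes, of which 43 were separated higher and 50 lower. They were drawn up with earlier results of these data known, so their counts are a description. Over all 14734 tested genes, fitted levels were higher for 7171 and lower for 7563, and the median log2 was -0.02. Of these genes 1.79% were separated higher and 2% lower, the shares against which each list count below is to be read.

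**Figure D4:**
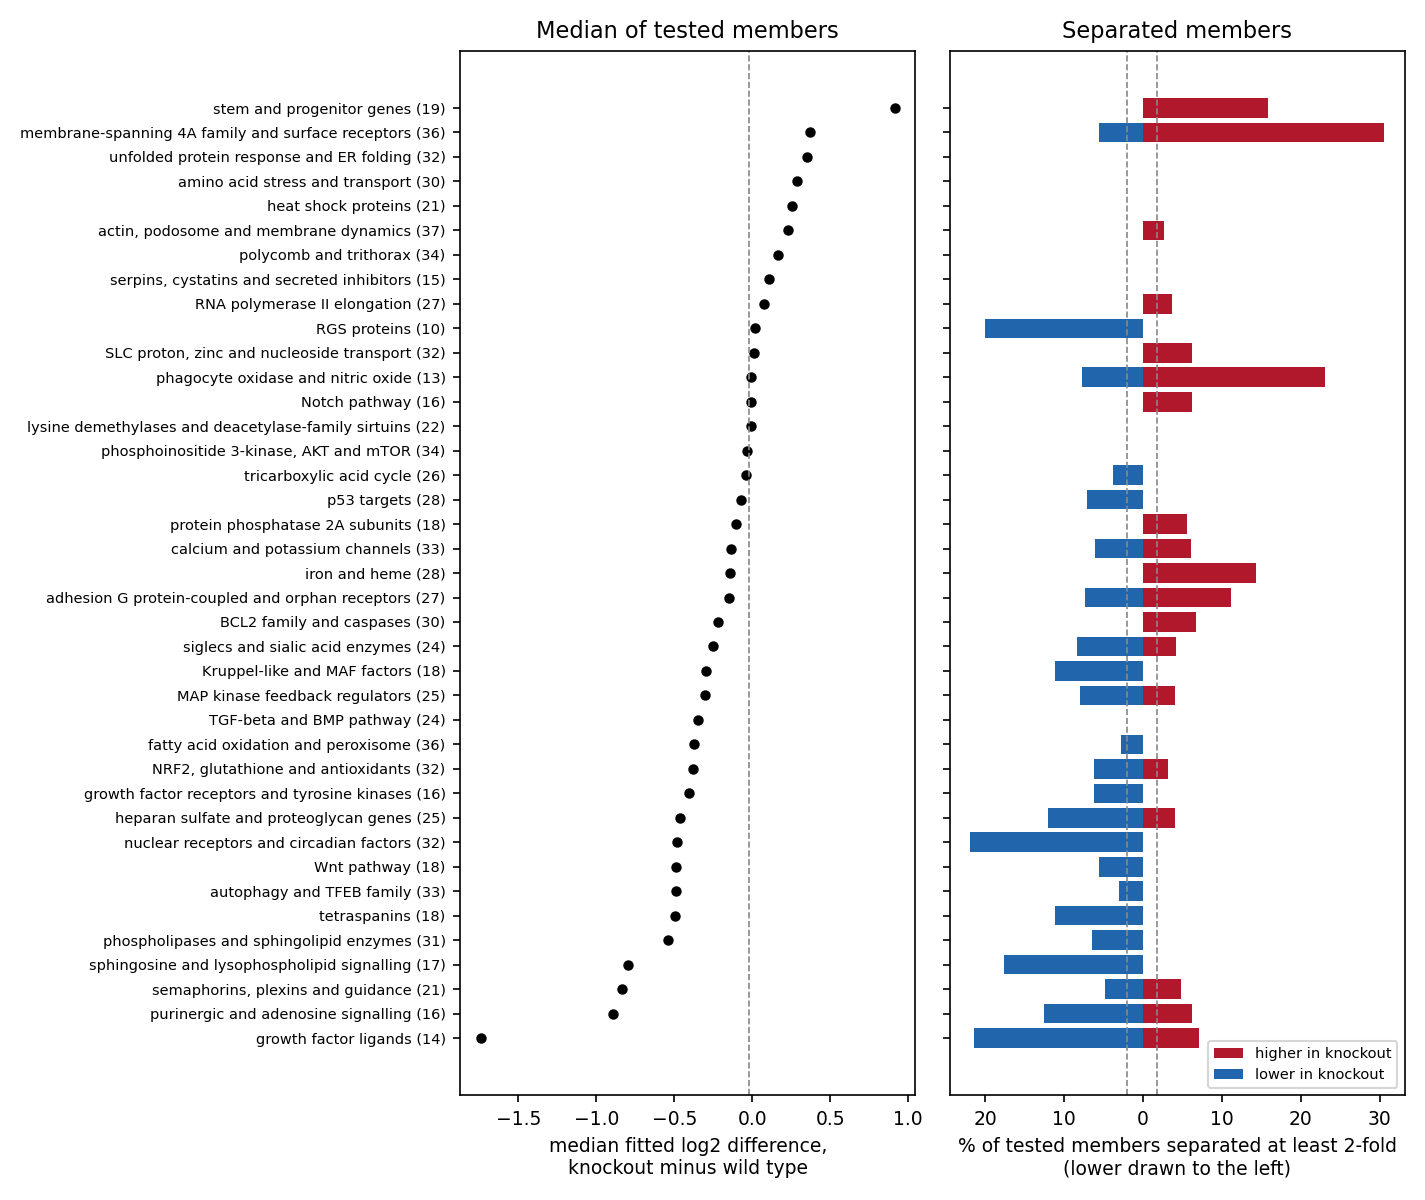
Left, the median fitted log2 difference (knockout minus wild type) of the tested members of each functional list shown, with the number tested in parentheses and a dashed line at the median of all tested genes. Right, the percent of tested members separated at least 2-fold, higher in knockout to the right and lower to the left, with dashed lines at 1.79% and 2% for all tested genes; the surface receptor list extends farthest to the right and the nuclear receptor list farthest to the left.

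The list membrane-spanning 4A family and surface receptors had the most separated members. Of 36 tested, 11 were separated higher (30.6%, against 1.79% of all tested genes) and 2 lower (5.56%, against 2%). Fitted levels were higher for 21 and lower for 15, and the median log2 was 0.37. The 5 separated membrane-spanning 4A genes, a family clustered on chromosome 19 that modulates signalling at the plasma membrane, were Ms4a4a, Ms4a4c, Ms4a6b, Ms4a6c and Ms4a6d. Ms4a6c was at 972 and 787 normalised CPM against 82.0, 227 and 81.8, and Ms4a4a at 65.9 and 54.3 against 6.72, 4.13 and 0.422. Members of this family resemble one another, so some reads may be shared. Cd300e, an activating receptor of monocytes, was at 105 and 67.7 against 0.411, 10.3 and 1.16, and Slamf9, of the SLAM family, at 258 and 190 against 4.45, 36.9 and 24.0. Cd69, an early activation marker, was at 31.4 and 27.3 against 0.617, 2.78 and 2.52, and Cd5l, a secreted scavenger protein of tissue macrophages, at 805 and 199 against 8.36, 71.5 and 18.05. The separated lower members were Cd84, a SLAM receptor, at 183 and 193 against 1646, 489 and 486, and Ly86, the MD-1 partner of RP105, at 5.52 and 12.1 against 42.2, 58.4 and 32.2. Cd72, at 677 and 671 against 155, 263 and 176, is also a surface co-receptor of B cells. With any 1 library left out the median of the list ran from 0.20 to 0.48.

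B cell markers were read beside these receptors. Of the 14 in the list 7 were tested, 1 was separated higher and 1 lower, and 5 had a higher fitted level in knockout (median log2 5.2). Counts were 0 for 4 and 5 of the 14 in knockout and for 9, 9 and 4 in wild type. A marker near 0 in wild type, such as Ms4a1, could pass the low-count filter only through knockout. Its higher fitted level was then fixed by the filter, and the median carries this limit. Without knockout 1, 4 were tested and 2 of them were fitted higher (median 1.24). The list summed to 116 and 119 CPM in knockout and 140 to 192 CPM in wild type. Ms4a1, which encodes CD20, was at 3.25 and 0.649 normalised CPM against 0.0685, 0 and 0.0844. The separated higher marker was Cd79b, at 16.4 and 9.73 against 0.959, 2.73 and 0.219. Immunoglobulin transcripts chosen after their values were seen were higher in both knockout libraries, with Igkc at 21.7 and 5.38 against 0.206, 0.0368 and 0.101 and Jchain at 2.76 and 1.98 against 0.137, 0.0553 and 0.0506. Both were higher in knockout 1 than in knockout 2. In the other direction, Cd22 was at 3.43 and 2.67 against 62.1, 10.7 and 10.6. Their part in the surface receptor results was not tested.

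No member of the list nuclear receptors and circadian factors was separated higher, and 7 of 32 were separated lower (21.9%, against 2% of all tested genes). Fitted levels were higher for 8 and lower for 24 (median log2 -0.48, and -0.69 to -0.38 with any 1 library left out). Rxra, the shared partner of many nuclear receptors, was at 20.2 and 30.8 normalised CPM against 180, 84.8 and 137. Esr1, the estrogen receptor alpha gene, was at 2.27 and 2.82 against 8.63, 12.9 and 8.90. The other 5 belong to or feed the circadian clock. Rora, an activator of clock genes, was at 5.45 and 6.18 against 53.1, 24.3 and 29.6, and Dbp, a clock output factor, at 2.64 and 1.95 against 19.5, 11.1 and 11.1. Tef, of the same PAR bZIP family as Dbp, was at 28.6 and 22.4 against 88.6, 58.0 and 67.9. Bhlhe40 and Bhlhe41, repressors of the clock, were at 4.29 and 6.64 against 85.0, 19.2 and 149, and at 12.2 and 14.7 against 143, 47.4 and 119. Among core clock genes, Arntl and Clock had fitted log2 differences of -0.21 and 0.10, Per1 and Per2 of -0.06 and 0.33, and Cry1 and Cry2 of 0.98 and 0.31, none of them separated. From the list Kruppel-like and MAF factors, Klf9 was separated lower, at 1.72 and 1.91 against 33.5, 11.2 and 22.0.

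Of the list growth factor ligands, 14 members were tested, and 12 had a lower fitted level (median log2 -1.74). Of the 14, 1 was separated higher (7.14%, against 1.79% of all tested genes) and 3 lower (21.4%, against 2%). Vegfa, the main angiogenic factor, was at 5.39 and 8.85 normalised CPM against 117, 38.1 and 109. Pdgfa was at 3.003 and 4.66 against 24.4, 10.1 and 29.6, and Hgf, a factor for epithelial cells, at 9.68 and 8.17 against 48.0, 21.6 and 27.3. Vegfc, which acts on lymphatic vessels, went the other way, at 18.7 and 20.3 against 0.0685, 2.65 and 3.39. Wild type 3, the library with stromal transcripts, bears on the list: without it the median was -0.78, with 11 lower of 14. The list TGF-beta and BMP pathway had 21 of 24 members fitted lower (median log2 -0.35), but without wild type 3 the count was 14 and the median -0.05, and it had no separated member. Il6st, the gp130 chain shared by receptors for the IL-6 family, was the 1 separated member of growth factor receptors and tyrosine kinases, at 71.0 and 81.3 against 365, 215 and 239.

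**Figure D5:**
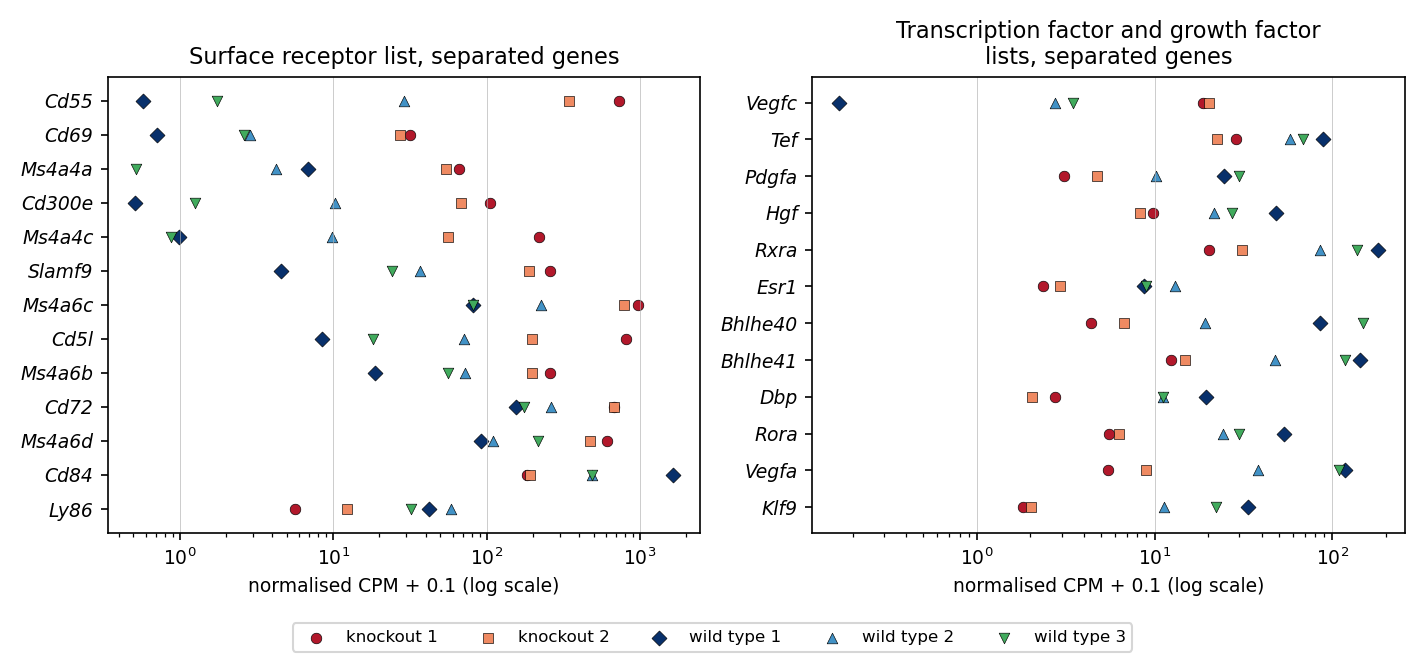
Normalised CPM plus 0.1 in every library on a log scale for the separated members of the surface receptor list (left) and of the nuclear receptor, Kruppel-like and growth factor ligand lists (right). On the left all genes but Cd84 and Ly86 have both knockout symbols to the right of the wild-type symbols; on the right this holds for Vegfc alone and all other genes have them to the left.

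Genes of lipid mediators and nucleotide signals mostly had lower fitted levels. In sphingosine and lysophospholipid signalling 3 of 17 members were separated lower (17.65%, against 2% of all tested genes) and 0 higher, with 14 fitted lower (median log2 -0.80). Without wild type 3 the median was -0.53, and 4 members were separated higher. The separated lower members were S1pr1, Lpar6 and Gpr34. S1pr1, a sphingosine 1-phosphate receptor of migrating leukocytes, was at 13.8 and 24.5 against 144, 50.4 and 118. Lpar6, a lysophosphatidic acid receptor, was at 21.1 and 15.4 against 109, 50.04 and 46.0. Gpr34, a lysophosphatidylserine receptor, was at 0 and 0.0382 against 2.47, 2.12 and 2.45. Near 0 in knockout, Gpr34 could pass the low-count filter only through wild type. In purinergic and adenosine signalling, whose median log2 of -0.89 was -0.51 without wild type 1, Entpd1 and P2ry1 (5.03 and 6.33 against 31.9, 19.9 and 15.4) were separated lower, while Adora2a, a receptor for adenosine, was separated higher at 7.72 and 4.73 against 0.274, 0.737 and 0.321. Thus the enzyme that breaks down extracellular ATP and an ATP and ADP receptor lay opposite to the adenosine receptor. Of 31 phospholipases and sphingolipid enzymes 25 were fitted lower (median log2 -0.54). Separated among them were Mgll, the monoacylglycerol lipase, at 1.41 and 2.40 against 253, 18.01 and 46.6, and the lysosomal enzyme gene Pld3, at 128 and 125 against 1427, 277 and 403. Without wild type 1, which was the highest for both, the list median was -0.31.

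In heparan sulfate and proteoglycan genes, Sulf2, Hpse and Ndst1 were separated lower and Chst7 higher, with 20 of 25 fitted lower (median log2 -0.46). With 1 library left out the median ran from -0.81, without knockout 2, to -0.29, without wild type 3, and 3 to 7 members were separated lower, 7 of them without wild type 2. Hpse, the enzyme that cuts heparan sulfate chains, was at 10.2 and 23.6 against 529, 103 and 141. Ndst1, which starts sulfation of the chain, was at 13.1 and 25.7 against 241, 66.3 and 89.0. Wild type 1 was the highest library for both, and without it the log2 differences of Hpse and Ndst1 were -2.88 and -2.03. The tetraspanins Cd9, at 25.2 and 74.0 against 498, 196 and 213, and Tspan7 were separated lower, and 0 of 18 tetraspanins were separated higher. Regulators of G protein signalling split: Rgs1 (37.6 and 35.7 against 252, 80.2 and 516) and Rgs2 (19.9 and 34.0 against 231, 110 and 185) were separated lower, while 5 of the 10 tested had a higher fitted level.

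Some metabolic and organelle lists had fitted differences mostly of one sign and few separated genes. Of 36 genes of fatty acid oxidation and peroxisome, 33 had a lower fitted level (median log2 -0.38, and -0.51 to -0.28 with any 1 library left out), and the only separated member was Acox3, a peroxisomal acyl-CoA oxidase, at 41.6 and 41.1 against 266, 123 and 111. Of 33 genes of the list autophagy and TFEB family, 29 were fitted lower (median log2 -0.49, and -0.65 to -0.37 with any 1 library left out), with Map1lc3a, which encodes a form of the autophagosome protein LC3, separated at 2.76 and 3.28 against 21.8, 7.59 and 17.8. The list unfolded protein response and ER folding lay the other way, with 24 of 32 fitted higher (median log2 0.35, and 0.25 to 0.56 with any 1 library left out) and 0 separated. Its highest fitted differences belonged to the chaperone and degradation genes Herpud1 (1.4), Hyou1 (1.17), Manf (1.16) and Creld2 (1.12), whereas Ppp1r15a (-1.68) was lower. Of 26 members of the tricarboxylic acid cycle 12 were fitted higher and 14 lower (median log2 -0.04), and this split turned on single libraries. It was 22 higher and 4 lower without knockout 1 (median 0.17), and 3 higher and 23 lower without knockout 2 (median -0.24). The cytosolic isocitrate dehydrogenase gene Idh1 was its 1 separated member, at 102 and 123 against 450, 262 and 267. Of 32 members of NRF2, glutathione and antioxidants 25 were fitted lower (median log2 -0.38), which leaving out knockout 1 reduced to 19 with a median of -0.13. In it the mitochondrial superoxide dismutase gene Sod2 was separated higher (363 and 485 against 77.2, 134 and 90.5) and Gpx3 and Mgst1 lower.

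Small lists of effector genes held a few separated members. In phagocyte oxidase and nitric oxide, 3 of 13 were separated higher (23.1%, against 1.79% of all tested genes) and 1 lower (7.69%, against 2%). Acod1, which makes the antimicrobial metabolite itaconate, was at 253 and 240 normalised CPM against 1.44, 29.3 and 10.1. Nos2, the inducible nitric oxide synthase, was at 1.84 and 1.30 against 0, 0.276 and 0.152, a low level in every library. Its wild-type level let it pass the low-count filter only through knockout, which fixed its direction. Slc7a2, which imports its substrate arginine, was separated lower at 3.19 and 2.56 against 18.3, 9.74 and 31.0. In iron and heme, 4 of 28 members were separated higher (14.3%, against 1.79% of all tested genes) and 0 lower, although 17 had a lower fitted level. Without knockout 2, 6 were separated higher and 4 lower. The list median log2 was -0.14, and 0.09 without wild type 1. The separated higher members were Flvcr2, the heme-induced factor Spic (26.4 and 12.3 against 3.91, 1.47 and 1.27), ceruloplasmin, Cp (212 and 60.4 against 1.30, 29.3 and 13.5), and the siderophore-binding lipocalin Lcn2 (24.0 and 21.1 against 7.54, 1.73 and 0.236). Lcn2 is also a neutrophil granule gene, and the neutrophil marker list summed to 72.1 and 205 CPM in knockout and 261, 50.6 and 10.7 CPM in wild type. Within wild type the list and Lcn2 had the same order of libraries, whereas wild type 1 exceeded both knockout libraries for the list and not for Lcn2. The part of neutrophils in the level of Lcn2 was not tested.

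Genes of the cytoskeleton and of progenitors also held separated members. Rac2, the blood cell GTPase that drives the phagocyte oxidase and motility, was at 1111 and 914 normalised CPM against 235, 339 and 192, and Vasp, an actin polymerase, at 438 and 395 against 119, 184 and 172. Arhgap22, Arhgap24 and Rhoc were separated lower, and Rhof higher. In stem and progenitor genes 19 of 31 were tested, of which 3 were separated higher (15.8%, against 1.79% of all tested genes) and 0 lower. Igf2bp2, an RNA-binding protein, was at 103 and 114 against 34.7, 41.9 and 16.6. Gfi1b, a repressor of erythroid and megakaryocyte cells, was at 5.82 and 5.11 against 0.0685, 0.700 and 0.0169. Being near 0 in wild type 1 and 3, Gfi1b could pass the low-count filter only through knockout. The share and the median of the list carry this limit. Bcl11a, a lymphoid and fetal globin regulator, was at 13.7 and 1.68 against 0.411, 0.387 and 0.236. The list median was 0.91 and ran from -0.11, without knockout 2, to 0.68 with any 1 library left out. No separated member was found in 8 lists, among them polycomb and trithorax (34 tested), heat shock proteins (21) and phosphoinositide 3-kinase, AKT and mTOR (34).

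The macrophage markers themselves divided. Aif1, an actin-binding protein of activated macrophages, was separated higher at 196 and 139 normalised CPM against 35.4, 65.2 and 16.3, and fitted levels were higher for 6 of the 14 markers and lower for 8. Adgre1, the F4/80 gene, was at 7126 and 5740 against 1590.8, 2918.5 and 767, and Cd68, a lysosomal glycoprotein, at 210 and 360 against 1549, 635 and 669. Csf1r overlapped between the genotypes. Of the 12 tested osteoclast markers, Mmp9 was separated higher (757 and 635 against 1.58, 68.5 and 3.43) and Atp6v0d2 (5.21 and 33.8 against 933, 153 and 229) and Itgb3 lower.

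Separated genes were also counted by their distance from Tet2. Within 5 Mb of Tet2 on chromosome 3, 2 of 43 tested genes were separated (4.65%), Dkk2 and Rpl34, both lower. Within 20 Mb the share was 3.60% of 139, against 4.13% of 508 on the rest of chromosome 3 and 4.07% of 12534 on other chromosomes, and no gene within 20 Mb was separated 10-fold. The highest share was on chromosome 17 (5.91% of 677), which holds the H2 cluster of histocompatibility genes. There H2-T10 (42.0 and 33.7 against 5.00, 4.35 and 3.44), H2-Q2, H2-Q6, H2-Q7 and H2-DMb2 were separated higher and H2-K2 (1.78 and 0.801 against 41.6, 10.4 and 35.6), H2-T22, H2-Q5 and H2-DMb1 lower. Several of these genes are close copies, so their counts are uncertain. Among ribosomal protein copies, Rpl29 was at 18.3 and 21.6 against 165, 174 and 212, the lowest edgeR quasi-likelihood adjusted p of the genes lower in knockout (0.0952), and the pseudogene Rps2-ps10 was higher at 102 and 162 against 10.3, 13.9 and 16.9.

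5hmC peaks were read at the same genes as a separate readout. Listed peaks overlapped the gene body of 50 of 251 genes separated higher (19.9%), 95 of 285 separated lower (33.3%) and 3242 of 13182 tested genes with a position (24.6%). The median gene lengths of these sets were 16.9, 26.3 and 19.97 kb, in the same order as the shares, and the part of length in the difference was not tested. Between the 2 knockout libraries of 5hmC the difference was below the sampling noise over 2544 peaks (chi-square of 0.575 per degree of freedom), so they count as 1 sample and no test was made. Of the named genes lower in knockout, Tmem154 had 0 and 1 counts in its 1 peak in knockout and 6 and 14 in wild type, Enpp1 2 and 1 against 9 and 15, and Entpd1 2 and 3 against 5 and 35 over 2 peaks. The totals behind them were 46230 and 42489 counts in knockout and 42678 and 219116 in wild type, so counts of the second wild-type library need scaling. Per 100000 peak counts Tmem154 was at 0 and 2.35 in knockout and 14.1 and 6.39 in wild type. Mamdc2 had the opposite pattern, with 8 and 6 counts in knockout and 2 and 3 in wild type. Per 100000, Fblim1, also lower in RNA, was at 32.4 and 37.7 in knockout and 35.1 and 34.7 in wild type. Cgnl1 was at 21.6 and 28.2 against 37.5 and 31.0, Tmod1 at 2.16 and 9.41 against 9.37 and 12.3. Arhgap6 was at 4.33 and 7.06 against 9.37 and 14.6. Batf, which was higher in knockout RNA, had 4 and 2 counts against 0 and 1. Sla and Suco, also higher in RNA, were at 10.8 and 11.8 against 23.4 and 20.1, and 8.65 and 7.06 against 4.69 and 7.30, per 100000. At 0 to 76 counts per gene, differences of this size rest on few reads.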

How the data were processed

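RNA was measured in 2 knockout-labelled and 3 wild-type libraries, and 5hmC in 2 and 2. The authors deposited raw counts, per gene for RNA and per listed peak for 5hmC. Per the labels, the RNA was ribodepleted and 5hmC was captured by hMeSeal. STAR, BWA, HTSeq, MACS2, Trim Galore, CASAVA 1.4 and the build GRCm38 are listed in the submitters' processing notes. Which annotation release and strand setting were used is not given in the sources used. Symbols were matched for 47224 of 47731 genes and positions for 34565, from RefSeq (GRCm38.p6). Groups come from the titles.

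After the rule on wild type 3, counts were fitted with edgeR 4.0.16 in R 4.3.3 (filterByExpr, TMM, glmQLFit and glmQLFTest, two-sided, Benjamini-Hochberg adjustment, threshold 0.05), whose common dispersion was 0.220. Adjusted p-values are edgeR's unless another tool is named. Members and lists were chosen with earlier results of these data known. Genes were named from those with a symbol, a mean of 5 CPM or more, and genotypes that did not overlap. Predicted genes, pseudogenes, ribosomal protein and histone genes were left out. The 10 with the smallest p and the 10 with the largest gap in each direction were taken, besides Tet2, genes past the adjusted p and up to 4 separated members per list, by gap. The planned exclusion of genes from earlier lists was not applied, because no such lists were used here. Other genes named were chosen after their values were seen. A few genes that the rule takes, and 1 list in the plots, are not reported here.

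Alternatives were DESeq2 1.42.0, limma-voom (limma 3.58.1), other scalings, filters and masks, a replicate block and leaving out each library. Counts were simulated for 14484 genes of this comparison, every gene with the common dispersion of 0.220, so differences in spread between genes were not copied. In them the edgeR test recovered 0% of the genes changed by 2-fold. The share was 34% for 4-fold changes, 84% for 8-fold and 100% for 32-fold, with 7 false calls among 14284 unchanged genes. Of unchanged genes 0.609% came out separated. In the real fit Cd55, with a fitted log2 of 5.68, was not called (edgeR quasi-likelihood adjusted p = 0.242). The simulated shares therefore do not give the power of the real fit or the background of its separated genes. RNA replicates differed by more than counting error (the closest pair had a chi-square of 83.1 per degree of freedom), and each was counted as its own sample. Such a spread does not show that the libraries come from separate animals or cultures. Same-numbered libraries carry only a number: their deviations had r = 0.111 (number 1) and -0.0945 (number 2) across genes.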

Additional observations from a re-analysis of the deposited data

Results flagged for a closer look

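Of the knock-in features left out of the comparison, the first had 1452 counts in knockout 1 and 2245 counts in knockout 2, and 0 counts in all 3 wild-type libraries. It stands out because its signal lies in data that no comparison used and is above the wild-type level, where a count of 0 allows up to 3 counts per library. The other knock-in feature had 1 and 3 counts in knockout and 0, 6 and 3 in wild type.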

How the results depend on the processing

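The 2 edgeR calls (0 lower) became 83 higher and 78 lower with all genes of at least 1 count. They became 0 higher with limma-voom and 0 higher with a replicate block, where the libraries share only a number. DESeq2 gave 468 and 677. An adjusted p of 0.1 gave 1 lower. Leaving out any 1 library gave 0 to 0 higher and 0 to 0 lower calls in edgeR. Alternatives chosen after seeing the data were DESeq2 without the rule on wild type 3 (499 and 711), DESeq2 without wild type 3 (563 and 699), and edgeR with wild type 2 as the only wild-type library (258 and 239), whose spread is then assumed equal to that of knockout. The cause of these shifts was not tested. Separated genes numbered 264 and 294. Leaving out 1 library gave 299 to 784 higher and 359 to 613 lower, with fewer libraries to satisfy. The count was 784 and 613 without knockout 2 and 565 and 523 without wild type 2, while keeping only wild type 2 gave 523 and 573. A fold of 3 gave 117 and 103, and no minimum fold 2545 and 2840. An offset of 0.1 CPM gave 338 and 392, and the other scalings, masks and filters 248 to 275 and 282 to 304. Of the 264 and 294 genes, 248 to 264 and 274 to 294 stayed separated in the alternatives that kept the 2-fold rule and the offset. A different test on the same normalised CPM leaves these sets unchanged by construction. Leaving out a library takes away a condition, apart from rescaling and refiltering. The range is therefore no measure of stability as a whole. With total counts scaling, which could remove genes, 252 and 274 stayed. More genes were separated lower than higher in the reported count, and more higher than lower without knockout 2, without wild type 2 and at a fold of 3. In the simulated counts, which gave every gene the same dispersion, 2-fold differences were not detected at this number of libraries.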
